A study of Mus musculus with 6 samples.

Results

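The 10 genes described here are Gzma, Gzmb, Prf1, Nkg7, Klrd1, Klrk1, Ncr1, Tbx21, Eomes and Itgae, genes used in mouse tissue to trace cytotoxic lymphocytes. They were chosen by name, with earlier results of these data known, and each matched 1 row of the 30777 genes measured. All 10 were among the 20101 genes expressed highly enough to be tested. RNA was sequenced from colon tissue of BALB/c mice, an inbred laboratory strain. The 3 libraries called 5-Fu came from mice given 5-fluorouracil, a pyrimidine analogue used in chemotherapy. In the 3 libraries called 5-Fu+BBR the mice received the same drug and also berberine, an alkaloid found in several medicinal plants. All 6 libraries therefore share 5-fluorouracil, and no untreated mice are analysed here. Doses, times, ages and the number of mice behind each library are not given in the labels used here, so each p-value reflects the spread among these libraries alone, which may be technical.

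Cytotoxic lymphocytes are CD8+ T cells, natural killer (NK) cells, related innate lymphoid cells and many of the T cells that sit between epithelial cells of the gut. They store granules that are released onto a target cell. Perforin forms pores in the target's membranes, granzymes enter the target and start its death, and receptors on the lymphocyte decide whether release takes place. In the gut many of these cells carry the integrin αE (CD103), which binds E-cadherin on the epithelium. None of the 10 genes is restricted to 1 kind of cell. Gzmb has been described in mast cells and Itgae is also carried by a subset of dendritic cells and by regulatory T cells.

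The deposited counts summed to between 53824752 and 63831168 per library. One sequenced fragment was taken as about 4 counts, so fragment numbers below are estimates, the counts divided by 4. Levels of a gene are given below as CPM, counts scaled to a common library size, and levels between genes as FPKM, which is scaled to transcript length. The epithelial markers Epcam and Krt8 stood at 1683 CPM or more in every library. The 5-Fu+BBR libraries 2 and 3 stand apart from the rest in kidney transcripts. Summed over the 7 kidney genes tested, these were at 172 and 166 CPM there, against 20.0 CPM in 5-Fu+BBR library 1 and 18.1 to 20.4 CPM in 5-Fu. Results for the cytotoxic genes are therefore also given for 5-Fu+BBR library 1 alone.

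In 5-Fu+BBR all 10 genes had a higher fitted level than in 5-Fu, with a median log2 fold change of 1.24, where the median of all genes tested was 0.0051. Of all genes tested, 50.7% had a positive log2 fold change. Since the 10 genes were chosen with earlier results of these data known, the shares given beside them are a description. They are not a test of the set. By the quasi-likelihood test of edgeR, 0 of the 10 reached an adjusted p under 0.05 in either direction, where 0.0597% of all genes tested were called higher and 0.0149% lower. With DESeq2, 2 of the 10 passed, Klrk1 and Itgae, where 4.38% of all genes were called higher. At an unadjusted p under 0.05 by edgeR 5 were higher, namely Klrk1, Itgae, Nkg7, Klrd1 and Tbx21, and 0 were lower, where 9.48% of all genes were higher and 6.08% lower at that p. For 4 of the 10 the groups did not overlap, all higher in 5-Fu+BBR, where 12.3% of all genes lay higher and 9.68% lower without overlap. Without 5-Fu+BBR library 1 it was 7 of the 10, where 18.7% of all genes lay higher. With 3 libraries against 3, an exact permutation test of a single gene cannot give a p under 0.1.

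**Figure D1:**
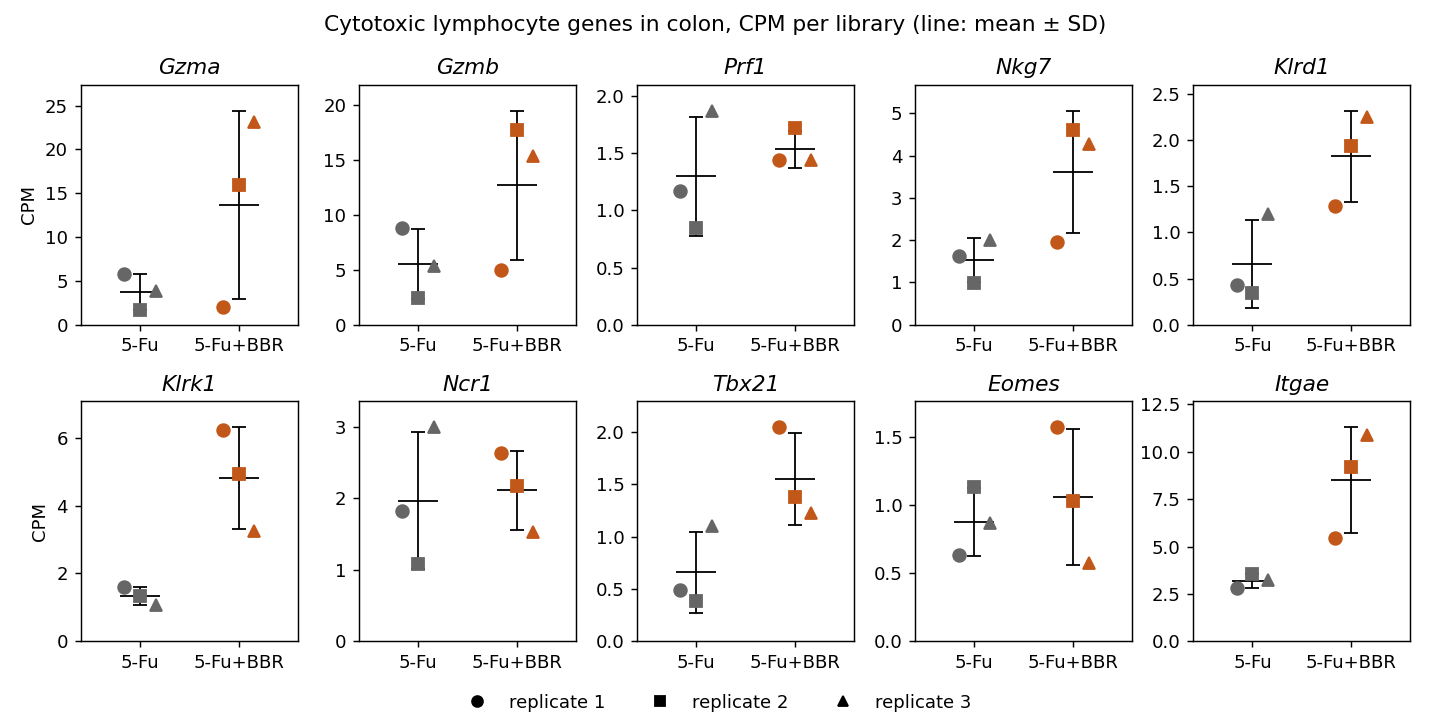
Level of each of the 10 genes in CPM (linear axis from 0, its own scale per gene) in the 3 libraries of 5-Fu and the 3 of 5-Fu+BBR. Each symbol is 1 library, with the replicate number given by its shape, and the line shows the mean ± SD. Klrd1, Klrk1, Tbx21 and Itgae do not overlap between groups, whereas Gzma and Gzmb are high in 5-Fu+BBR libraries 2 and 3 and not in library 1.

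The granule proteases gave the highest levels and the widest spread. Gzma (ENSMUSG00000023132, chromosome 13, 113093825 to 113100981 of GRCm38, minus strand) encodes granzyme A, a trypsin-like serine protease. It was at 5.75, 1.68 and 3.82 CPM in the 5-Fu libraries 1 to 3 and at 2.05, 15.9 and 23.1 CPM in the 5-Fu+BBR libraries 1 to 3. The groups overlapped, since the first 5-Fu+BBR library lay within the range of 5-Fu and the other two lay above it. The means were 3.75 ± 2.03 against 13.7 ± 10.7 CPM (SD, n = 3 each), and the log2 fold change was 1.87 ± 0.89 (SE, adjusted p = 0.384 by edgeR).

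Gzmb (ENSMUSG00000015437, chromosome 14, 56258838 to 56262260, minus strand) encodes granzyme B, which cleaves after aspartate and activates caspases. Its levels were 8.83, 2.40 and 5.36 CPM in 5-Fu and 4.97, 17.8 and 15.4 CPM in 5-Fu+BBR, in the same order. As for Gzma, libraries 2 and 3 of 5-Fu+BBR were the highest of the 6 and library 1 lay within 5-Fu. The log2 fold change was 1.20 ± 0.61 (SE, adjusted p = 0.399 by edgeR). With 5-Fu+BBR library 1 alone against 5-Fu the log2 fold change of both genes turned negative, to -0.88 for Gzma and -0.16 for Gzmb. Without that library it was 2.39 for Gzma (adjusted p = 0.118 by edgeR) and 1.59 for Gzmb (adjusted p = 0.234 by edgeR).

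Nkg7 (ENSMUSG00000004612, chromosome 7, 43437073 to 43438249, plus strand) encodes a membrane protein of the cytotoxic granule that takes part in its release. Its levels were 1.62, 0.982 and 2.01 CPM in 5-Fu and 1.94, 4.61 and 4.27 CPM in 5-Fu+BBR. The order of the libraries resembled that of the granzymes, with 5-Fu+BBR library 1 just under the highest library of 5-Fu. The log2 fold change was 1.23 ± 0.42 (SE, adjusted p = 0.230 by edgeR), and 0.33 with 5-Fu+BBR library 1 alone. Over the 6 libraries the log2 levels of Gzma and Gzmb had a Pearson r of 0.95, those of Gzmb and Nkg7 of 0.92 and those of Gzma and Nkg7 of 0.90. These values describe 6 libraries that share their treatment groups and their depth, and are given without a test.

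Prf1 (ENSMUSG00000037202, chromosome 10, 61297833 to 61304680, plus strand) encodes perforin, the pore-forming protein that granzymes need to reach the target cell. Its levels were 1.17, 0.848 and 1.87 CPM in 5-Fu and 1.44, 1.72 and 1.44 CPM in 5-Fu+BBR, so the highest library was one of 5-Fu and all 5-Fu+BBR libraries lay within the range of 5-Fu. The log2 fold change was 0.24 ± 0.37 (SE, adjusted p = 0.799 by edgeR), and 0.14 with 5-Fu+BBR library 1 alone. These values rest on 54.25 fragments in all of 5-Fu and 65 in all of 5-Fu+BBR.

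The promoters of Gzma, Gzmb and Nkg7, which were high in the same libraries, are printed here, with that of Klrk1, which was highest in another library. Each is the 250 bases before the RefSeq start of the gene in GRCm38.p6, 5′ to 3′ on the gene's strand. Capitals mark the T-box core GTGTGA, bound by factors of the family of Tbx21 and Eomes, and the Runx core TGTGGT, on either strand.
Gzma, chr13:113100982-113101231, minus strand: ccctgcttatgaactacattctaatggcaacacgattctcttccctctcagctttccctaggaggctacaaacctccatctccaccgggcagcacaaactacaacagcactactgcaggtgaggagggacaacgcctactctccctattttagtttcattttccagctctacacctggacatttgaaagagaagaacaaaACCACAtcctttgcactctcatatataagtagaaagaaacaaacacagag
Gzmb, chr14:56262335-56262584, minus strand: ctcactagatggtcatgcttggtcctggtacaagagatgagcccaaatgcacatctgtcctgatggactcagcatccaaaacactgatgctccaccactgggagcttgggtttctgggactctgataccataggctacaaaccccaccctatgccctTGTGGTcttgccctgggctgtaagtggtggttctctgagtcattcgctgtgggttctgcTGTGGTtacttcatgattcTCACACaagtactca
Nkg7, chr7:43436888-43437137, plus strand: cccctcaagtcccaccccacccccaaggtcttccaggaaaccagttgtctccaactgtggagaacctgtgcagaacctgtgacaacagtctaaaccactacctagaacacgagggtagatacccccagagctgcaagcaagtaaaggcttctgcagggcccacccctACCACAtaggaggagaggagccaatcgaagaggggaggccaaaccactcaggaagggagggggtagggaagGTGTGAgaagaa
Klrk1, chr6:129623865-129624114, minus strand: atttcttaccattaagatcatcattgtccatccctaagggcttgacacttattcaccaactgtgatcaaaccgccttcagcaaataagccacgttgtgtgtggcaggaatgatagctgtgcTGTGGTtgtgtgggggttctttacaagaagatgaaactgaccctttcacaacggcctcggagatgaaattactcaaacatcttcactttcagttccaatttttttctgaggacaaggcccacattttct

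Gzmb held 1 T-box core, 15 bases before the start, and 2 Runx cores, 34 and 93 bases before it. Nkg7 held a T-box core 12 bases and a Runx core 83 bases before the start. Gzma held a Runx core 50 bases before the start and Klrk1 a Runx core 129 bases before it, and no GTGTGA occurs in either window. None of these matches overlaps another. Of the 8 members found in the promoter table, 3 held a T-box core (Gzmb, Nkg7 and Ncr1), against 12.3% of 32851 promoter windows of the same length. A Runx core occurred in 6 of the 8, against 14.0% of the windows. An AP-1 site and an interferon-stimulated response element core were also searched and are not marked in capitals. The AP-1 site occurred in 1 of the 8, Gzmb, 58 bases before the start, against 6.75% of the windows. The interferon core occurred in 2, Gzma (97 bases before the start) and Eomes, against 2.98%. The 8 members had 9 windows, with Ncr1 counted once, so counts of genes stand beside shares of single windows. The RefSeq start of Gzmb lies 74 bases and that of Nkg7 65 bases from the gene start in the deposited table, so distances depend on the annotation. Matches are letters in a window and do not show binding.

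Among the receptors, Klrk1 had the smallest p of the 10 genes. Klrk1 (ENSMUSG00000030149, chromosome 6, 129610323 to 129623864, minus strand) encodes NKG2D, an activating receptor of NK cells and cytotoxic T cells that recognises stress-induced ligands. It was at 1.60, 1.32 and 1.06 CPM in 5-Fu and at 6.24, 4.94 and 3.25 CPM in 5-Fu+BBR. Every 5-Fu+BBR library lay above every 5-Fu library, and library 1, the lowest of its group for Gzma and Gzmb, was the highest for Klrk1. The means were 1.33 ± 0.270 against 4.81 ± 1.50 CPM (SD, n = 3 each), 3.61-fold apart. The log2 fold change was 1.85 ± 0.33 (SE, unadjusted p = 0.000478 and adjusted p = 0.0923 by edgeR). With DESeq2 the adjusted p was 2.76e-05. With 5-Fu+BBR library 1 alone the log2 fold change was 2.21 and the adjusted p by edgeR 0.559.

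Klrd1 (ENSMUSG00000030165, chromosome 6, 129591782 to 129598775, plus strand) encodes CD94, which pairs with NKG2 chains to read the non-classical class I molecule Qa-1. Its levels were 0.432, 0.342 and 1.20 CPM in 5-Fu and 1.28, 1.94 and 2.25 CPM in 5-Fu+BBR. There was no overlap between groups, but the lowest 5-Fu+BBR library and the highest 5-Fu library rested on only 19.0 and 15.25 fragments. The log2 fold change was 1.48 ± 0.53 (SE, adjusted p = 0.250 by edgeR), and 0.96 with 5-Fu+BBR library 1 alone. Ncr1 (ENSMUSG00000062524, chromosome 7, 4337724 to 4345164, plus strand) encodes NKp46, an activating receptor of NK cells and innate lymphoid cells. It was at 1.82, 1.09 and 3.00 CPM in 5-Fu and at 2.64, 2.17 and 1.53 CPM in 5-Fu+BBR, so all 5-Fu+BBR libraries fell within the range of 5-Fu. Its log2 fold change was 0.11 ± 0.42 (SE, adjusted p = 0.930 by edgeR), and 0.42 with 5-Fu+BBR library 1 alone. The sign turned without 5-Fu library 2 (-0.18) and without 5-Fu+BBR library 1 (-0.083).

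Both T-box transcription factors of the cytotoxic programme were low, and the difference between their fold changes was not tested. Tbx21 (ENSMUSG00000001444, chromosome 11, 97098071 to 97115331, minus strand) encodes T-bet, which drives type 1 responses and granule genes. It was at 0.486, 0.387 and 1.10 CPM in 5-Fu and at 2.05, 1.37 and 1.23 CPM in 5-Fu+BBR. Again no library of one group lay within the other, library 1 being the highest of 5-Fu+BBR. The lowest 5-Fu+BBR library and the highest 5-Fu library rested on only 17.0 and 14.0 fragments. The log2 fold change was 1.24 ± 0.48 (SE, adjusted p = 0.277 by edgeR), and 1.63 with 5-Fu+BBR library 1 alone. Eomes (ENSMUSG00000032446, chromosome 9, 118478212 to 118486132, plus strand), the related T-box factor needed for NK cell maturation, was the lowest of the 10 by mean FPKM over all 6 libraries. It was at 0.630, 1.13 and 0.867 CPM in 5-Fu and at 1.57, 1.03 and 0.577 CPM in 5-Fu+BBR, the highest and the lowest of the 6 libraries both being 5-Fu+BBR. Its log2 fold change was 0.27 ± 0.46 (SE, adjusted p = 0.822 by edgeR). It was 0.83 with 5-Fu+BBR library 1 alone and turned to -0.12 without that library. Gm33460, whose exons overlap Eomes on the opposite strand, had at most 15 counts per library.

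Itgae (ENSMUSG00000005947, chromosome 11, 73090583 to 73147446, plus strand) encodes the αE chain of CD103, the adhesion receptor of lymphocytes within the epithelium. It was at 2.83, 3.54 and 3.21 CPM in 5-Fu and at 5.44, 9.19 and 10.9 CPM in 5-Fu+BBR. No overlap between groups was seen, and the 5-Fu libraries lay close together. Haspin, which overlaps Itgae on the opposite strand with exons apart, had 399 to 695 counts per library. The means were 3.19 ± 0.358 against 8.51 ± 2.79 CPM (SD, n = 3 each), with a log2 fold change of 1.41 ± 0.29 (SE, adjusted p = 0.113 by edgeR; 0.000494 with DESeq2). With 5-Fu+BBR library 1 alone the log2 fold change was 0.76.

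**Figure D2:**
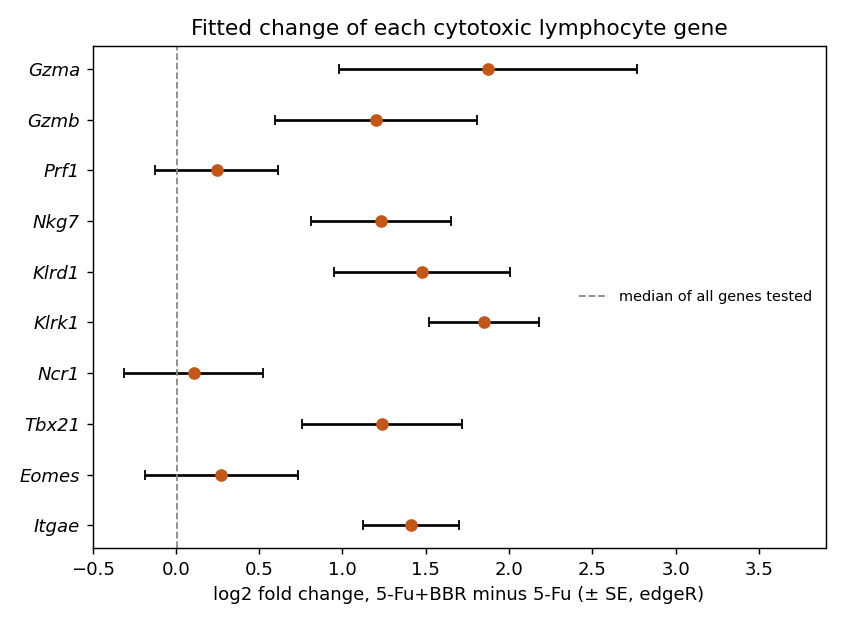
Fitted log2 fold change of each of the 10 genes, 5-Fu+BBR minus 5-Fu, as points with the standard error from edgeR as bars, and the median of all genes tested as a dashed line. Prf1, Ncr1 and Eomes lie between 0.11 and 0.27, and the other genes lie between 1.20 and 1.87.

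Levels between the genes were compared in FPKM. Gzmb and Gzma led in 5-Fu with 3.20 ± 1.87 and 3.09 ± 1.67 FPKM (SD, n = 3), which did not differ beyond their spread. They were followed by Nkg7 at 1.38 ± 0.387, Ncr1 at 1.04 ± 0.443 and Itgae at 0.586 ± 0.0938 FPKM, whose ranges over libraries overlapped from each gene to the next. Prf1, Klrd1, Tbx21, Eomes and Klrk1 were between 0.410 and 0.153 FPKM, with Klrk1 last. In 5-Fu+BBR Gzma led with 11.6 ± 9.13 FPKM, ahead of Gzmb at 7.55 ± 4.18 FPKM and within its spread. Nkg7, Itgae and Klrd1 came next at 3.35 ± 1.43, 1.57 ± 0.544 and 1.18 ± 0.347 FPKM. Ncr1 stood at 1.15 ± 0.277 FPKM and Klrk1 at 0.556 ± 0.163 FPKM. Tbx21, Prf1 and Eomes were the lowest, at 0.519, 0.491 and 0.212 FPKM.

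The other genes of the granule pathway were measured beside these. For this list and those below, 9.48% of all genes tested were higher and 6.08% lower at an unadjusted p under 0.05. A positive log2 fold change was found in 50.7% of all genes tested. Of the other granzymes, 3 of the 6 in the table were expressed highly enough to be tested, and 0 of them had an unadjusted p under 0.05. Gzmk, of circulating and memory CD8+ T cells, was at 0.352 ± 0.351 against 0.715 ± 0.328 CPM. Gzmc and Gzmm had mean levels of 0.302 CPM or less in both groups. Of the 12 genes of granule loading and release tested, 9 had a positive log2 fold change (median 0.40), 0 passed adjustment, and 4 were higher and 0 lower at an unadjusted p under 0.05. Those were Srgn, the proteoglycan on which granzymes are packed, at 16.8 ± 2.62 against 31.0 ± 4.42 CPM, Cst7, encoding the protease inhibitor cystatin F, at 1.61 ± 0.454 against 4.33 ± 0.749 CPM, Ctsw, encoding cathepsin W, at 2.68 ± 0.968 against 6.19 ± 1.67 CPM, and Rab27a, a vesicle docking GTPase. Their adjusted p by edgeR was between 0.098 and 0.305. Lamp1 and Unc13d, which many cells express, were at 616 ± 41.0 against 613 ± 44.2 CPM and 20.2 ± 2.85 against 18.1 ± 2.06 CPM. Of the 4 serpin genes of granzyme inhibition 2 had a positive and 2 a negative log2 fold change (median 0.16), 0 passed adjustment and 1, Serpinb6b, was higher at an unadjusted p under 0.05. Serpinb6b was at 3.41 ± 1.02 against 5.87 ± 1.23 CPM and Serpinb9, the inhibitor of granzyme B, at 13.6 ± 2.19 against 18.9 ± 4.93 CPM (adjusted p = 0.273 and 0.343 by edgeR). Serpinb9b was at 0.409 ± 0.247 against 0.121 ± 0.127 CPM and Serpinb6a at 426 ± 81.0 against 381 ± 32.5 CPM (adjusted p = 0.473 and 0.682 by edgeR).

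Death ligands and effector cytokines were mixed. Of 10 genes 8 had a positive log2 fold change (median 0.68) and 0 passed adjustment. At an unadjusted p under 0.05, 3 were higher, where 9.48% of all genes were. The chemokine gene Ccl5, stored with granules in effector T cells, was at 1.71, 1.01 and 2.23 CPM in 5-Fu and at 1.89, 3.53 and 8.51 CPM in 5-Fu+BBR. Fasl, which encodes the Fas ligand, was at 0.264 ± 0.0830 against 0.591 ± 0.0915 CPM, and Lta, encoding lymphotoxin α, at 1.69 ± 0.857 against 3.31 ± 0.543 CPM. Ifng, the cytokine of type 1 lymphocytes, was at 2.97, 0.238 and 0.355 CPM in 5-Fu and at 0.592, 1.25 and 0.0902 CPM in 5-Fu+BBR, so the highest library belonged to 5-Fu and the groups overlapped. Its log2 fold change was -0.88 ± 1.18 (SE, adjusted p = 0.770 by edgeR).

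Further NK receptors and their adaptors were mostly low. Of 16 tested, 14 had a positive log2 fold change (median 0.75) and 0 passed adjustment. At an unadjusted p under 0.05, 4 were higher, where 9.48% of all genes were. Il2rb, the receptor chain shared by interleukins 2 and 15, was at 7.27 ± 2.77 against 13.4 ± 1.26 CPM and Slamf7, a receptor of NK and plasma cells, at 1.92 ± 1.48 against 6.17 ± 0.921 CPM. Klrc2, which encodes a partner of CD94, was at 0.466 ± 0.236 against 1.14 ± 0.362 CPM. Klrg1, found on differentiated effector cells, was listed at 0 in 2 of the 3 libraries of 5-Fu and was at 0.845, 0.633 and 0.848 CPM in 5-Fu+BBR. Hcst, encoding the adaptor DAP10 through which NKG2D signals, was at 1.62 ± 0.323 against 2.67 ± 0.760 CPM (adjusted p = 0.338 by edgeR). Tyrobp and Fcer1g, adaptors shared with myeloid cells, were at 11.0 ± 1.83 against 12.8 ± 1.50 CPM and 8.18 ± 0.477 against 9.07 ± 1.98 CPM.

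The ligands of these receptors are carried mainly by the tissue. H2-T23, which encodes the Qa-1 molecule read by CD94, was at 184, 257 and 302 CPM in 5-Fu and at 521, 596 and 359 CPM in 5-Fu+BBR, without overlap (log2 fold change 0.99 ± 0.24, adjusted p = 0.146 by edgeR). The NKG2D ligand genes tested showed no such separation. Raet1a, Raet1b and Raet1c were not among the genes measured, and H60c was not tested, so the NKG2D ligands were covered only in part. Ulbp1 was at 11.5 ± 4.58 against 9.87 ± 1.14 CPM, Raet1e at 0.415 ± 0.394 against 0.889 ± 0.340 CPM and H60b at 0.501 ± 0.102 against 0.388 ± 0.0872 CPM. Cdh1, encoding E-cadherin, to which CD103 binds, was at 1045 ± 129 against 1060 ± 125 CPM (log2 fold change 0.020 ± 0.15). Of the 8 ligand genes tested 5 had a positive log2 fold change (median 0.10), where 50.7% of all genes did, and 0 passed adjustment. At an unadjusted p under 0.05, 1 was higher, H2-T23, where 9.48% of all genes were, so these counts lie near the shares of all genes.

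Genes that bring lymphocytes to the gut wall or hold them there were read beside Itgae. Of the 12 tested 11 had a positive log2 fold change (median 0.78), where 50.7% of all genes did, and 0 passed adjustment. At an unadjusted p under 0.05, 6 were higher, where 9.48% of all genes were. The groups did not overlap for Itgb7, the β chain that pairs with αE, at 5.94, 10.6 and 10.3 CPM in 5-Fu and 13.9, 22.4 and 22.7 CPM in 5-Fu+BBR. They also did not overlap for Itga4, at 15.4 ± 3.20 against 34.2 ± 4.46 CPM, and for Cd69, an early activation and residence marker, at 3.97 ± 0.0837 against 9.23 ± 1.73 CPM (adjusted p = 0.0752 and 0.0923 by edgeR). Cdh17 and Ahr, which epithelial cells express too, were at 792 ± 122 against 684 ± 83.9 CPM and 20.0 ± 3.60 against 20.6 ± 0.721 CPM.

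Of the other transcription factors 9 were tested, of which 7 had a positive log2 fold change (median 0.29) and 0 passed adjustment. At an unadjusted p under 0.05, 5 were higher and 1 lower, where 9.48% of all genes were higher and 6.08% lower. Runx3, which drives CD8+ T cell and CD103 expression, was at 3.29 ± 1.05 against 6.14 ± 0.842 CPM, and Bach2, which restrains effector differentiation, at 4.40 ± 1.54 against 10.8 ± 0.138 CPM. Tcf7, of naive and memory T cells, was at 9.04 ± 3.24 against 17.2 ± 4.83 CPM. Nfil3, needed for NK cell development and also a clock-linked gene of many tissues, was at 8.95 ± 2.21 against 4.10 ± 1.22 CPM (adjusted p = 0.160 by edgeR). Among the cytokines that sustain these cells, Il15 was at 8.00, 6.61 and 9.03 CPM in 5-Fu and at 13.1, 12.6 and 13.2 CPM in 5-Fu+BBR, without overlap (log2 fold change 0.72 ± 0.18, adjusted p = 0.146 by edgeR). Its presenting receptor chain Il15ra was at 13.0 ± 1.47 against 16.9 ± 2.30 CPM. Of the 10 cytokine genes tested 8 had a positive log2 fold change (median 0.52) and 0 passed adjustment. At an unadjusted p under 0.05, 4 were higher, where 9.48% of all genes were.

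Markers of the cells that could carry the 10 genes were read in the same libraries. In bulk tissue, fewer cells of a type and less RNA per cell cannot be told apart. The 11 T cell markers, led by Lck and Cd247, all had positive log2 fold changes (median 1.20), and summed to 27.9 to 42.8 CPM in 5-Fu and 64.8 to 104 CPM in 5-Fu+BBR. For 10 of the 11 the groups did not overlap, where 12.3% of all genes lay higher without overlap. Cd8a was at 2.67, 1.67 and 3.07 CPM in 5-Fu and at 3.09, 7.99 and 8.46 CPM in 5-Fu+BBR, library 1 thus standing close to 5-Fu as it did for the granzymes. Cd4 was at 5.53 ± 1.08 against 11.8 ± 2.42 CPM. The γδ T cell receptor genes Trgc1 and Trgc2 were at 0.562 ± 0.0911 against 1.48 ± 0.311 CPM and 0.442 ± 0.0864 against 1.71 ± 1.09 CPM, while Trdc, the δ constant gene, was at 1.15 ± 0.570 against 1.44 ± 0.581 CPM.

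The markers of NK cells and type 1 innate lymphoid cells, which include Ncr1 and Eomes themselves, had a median log2 fold change of 0.15 over 5 genes, 4 positive and 1 negative. They summed to 10.3 to 13.2 CPM in 5-Fu and 9.83 to 14.5 CPM in 5-Fu+BBR, and most of that sum was Fcer1g, which mast and myeloid cells share. Klrb1c, which encodes NK1.1 in strains that carry it, was at 0.631 CPM or less in every library. Mast cell markers, of which 7 of 7 tested had a positive log2 fold change (median 1.62), summed to 43.1 to 52.2 CPM in 5-Fu and 59.0 to 94.2 CPM in 5-Fu+BBR. Mcpt1, a protease of mucosal mast cells, was at 4.63, 21.9 and 3.64 CPM in the 5-Fu+BBR libraries 1 to 3, so its highest library was also that of Gzmb, while library 3, at 15.4 CPM of Gzmb, was the lowest of the group for Mcpt1. Cpa3 was listed at 0 in 5-Fu+BBR library 1 and was at 1.28 and 0.559 CPM in libraries 2 and 3. Of the kidney markers 7 of 7 tested had a positive log2 fold change (median 2.60). The part of mast cell and kidney RNA in the granzyme levels was not tested.

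**Figure D3:**
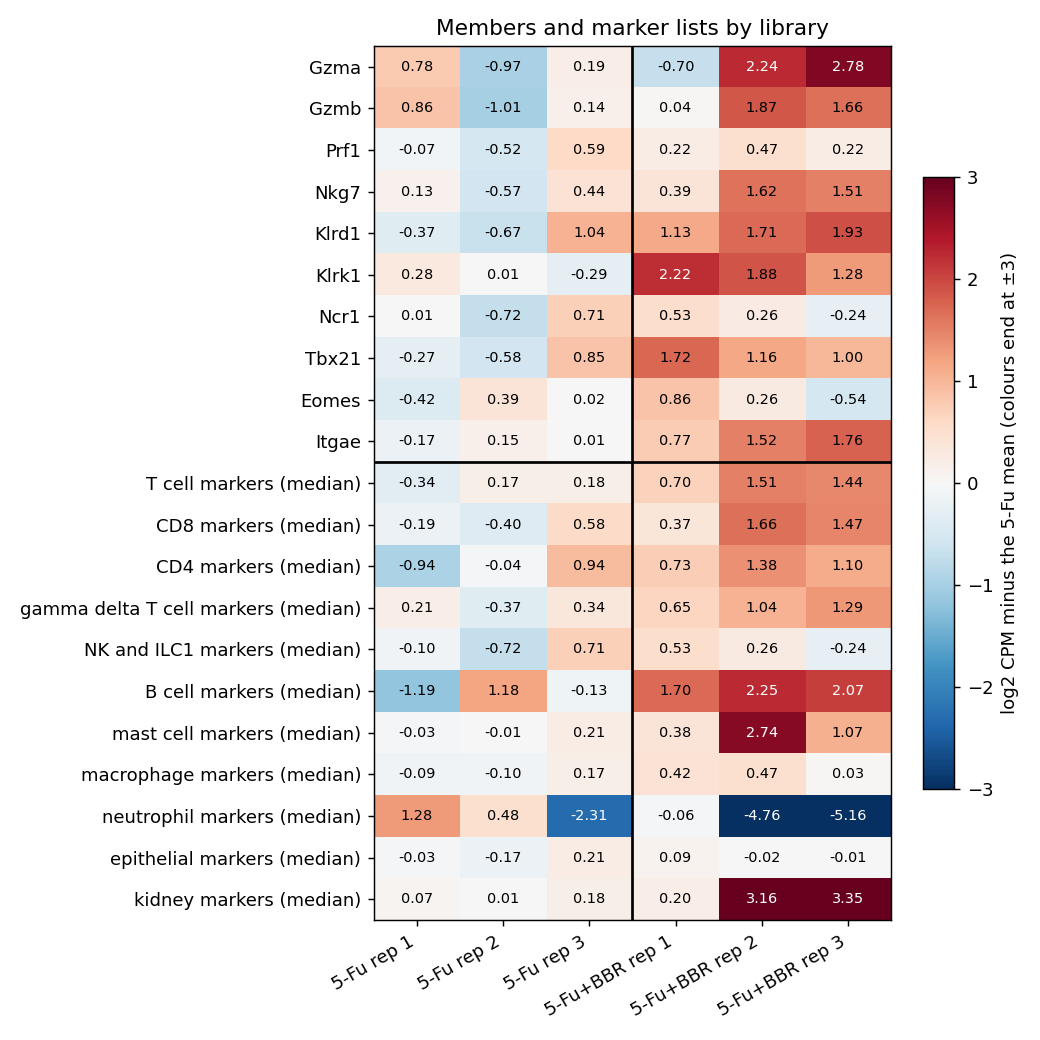
Log2 CPM relative to the mean of 5-Fu for each of the 10 genes (upper block) and the median of each marker list (lower block) in the 6 libraries, with colours that end at 3 in either direction. Gzma, Gzmb, Nkg7, Klrd1, Itgae and, by little, Prf1 are higher in 5-Fu+BBR libraries 2 and 3 than in library 1. So are the T cell, CD8, CD4, γδ T cell, B cell, mast cell and kidney medians. Klrk1, Tbx21 and Eomes are highest in 5-Fu+BBR library 1, and the NK and ILC1 median stays between -0.72 and 0.71.

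Each gene was also read relative to the RNA of the CD3 chain genes Cd3d, Cd3e, Cd3g and Cd247. The value is its log2 CPM minus the mean log2 CPM of those genes in the same library. That CD3 mean was 0.89, 1.48 and 1.35 in 5-Fu and 1.84, 2.71 and 2.73 in 5-Fu+BBR. On this scale the groups overlapped for all 10 genes, and no test was made. The share of all genes that overlap on this scale was not computed. The means of 5-Fu and 5-Fu+BBR were 1.05 ± 1.23 and 1.05 ± 0.499 for Gzmb, and -0.64 ± 0.71 and -0.66 ± 0.18 for Nkg7. For Itgae, whose values were closest together, they were 0.45 ± 0.16 and 0.61 ± 0.11. Klrk1 had the largest positive difference, 0.61, with -0.81 ± 0.55 in 5-Fu and -0.20 ± 0.93 in 5-Fu+BBR. Because the CD3 mean was higher in every 5-Fu+BBR library, a gene with an unchanged level falls on this scale by arithmetic. Ncr1, Eomes and Prf1, the genes whose own levels differed least, thus had differences of -1.0, -0.99 and -0.89. These are not a separate result about those genes.

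**Figure D4:**
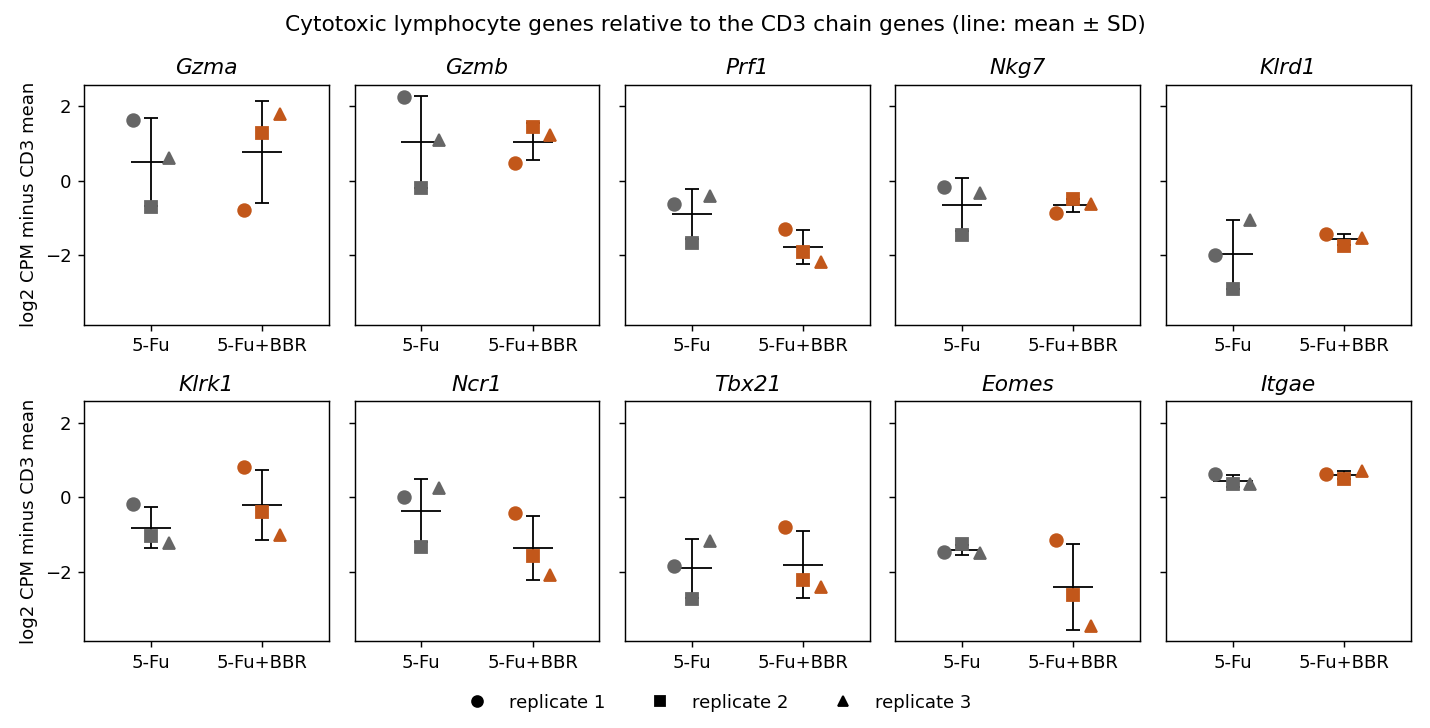
Log2 CPM of each of the 10 genes minus the mean log2 CPM of Cd3d, Cd3e, Cd3g and Cd247 in the same library, on 1 shared axis. Each symbol is 1 library and the line shows the mean ± SD of the 3 libraries of a group. The groups overlap for all 10 genes.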

How the data were processed

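Per the labels' protocols, Trizol RNA from colon was selected with oligo(dT), made into strand-marked libraries with molecular identifiers and sequenced as paired reads of 150 bases. Among the tools in the submitters' processing notes are StringTie 1.3.4d, HISAT2 2.0.4 and cutadapt 1.9, besides UMI-tools, edgeR and DESeq2, with GRCm38 as the build and no roles stated. The annotation version, the strand setting of counting and the use of the identifiers are not given in the sources used here. The authors deposited estimated counts, written as whole numbers, and FPKM for each library. Among genes with 1 transcript, a count of exactly 4 was 1.83 to 2.18 times as frequent as its neighbours. At counts of 8 and 12 the ratio was smaller, 1.19 to 1.49 and 1.04 to 1.56. On this basis 1 fragment is taken as about 4 counts, and counting error is then larger than the deposited counts imply.

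The counts were used as deposited, filtered with filterByExpr, scaled with TMM and compared in R 4.3.3 by the robust quasi-likelihood F test of edgeR 4.0.16, without covariates. P-values are two-sided and were adjusted by Benjamini-Hochberg across all 20101 genes that passed the filter. SE is the log2 fold change over the root of its F value. CPM use the TMM-scaled library size, and log2 CPM a prior count of 2. Alternatives used DESeq2 1.42.0 and limma 3.58.1. Steps were tested on simulated data. Chi-square values per gene between libraries ran from 20.0 to 57.9, so no pair agreed within sampling noise. No stretch of 50 bases of the members' transcripts occurs in another gene of GENCODE M21, save 0.386% for Eomes. Promoters are RefSeq's (GRCm38.p6), found for 8 of the 10 genes. Figures used matplotlib 3.10.9.

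The 10 genes and the other lists were chosen with earlier results of these data known. For each list, up to 4 genes with the smallest p were to be named by rule. Others in it, such as Hcst, Lamp1, Unc13d, Ifng, Tyrobp, Fcer1g, Ulbp1, H60b, Cdh1, Cdh17, Ahr, Cpa3, Trdc, Klrb1c, Epcam, Krt8 and Ddx3y, were named for their role after their values were seen.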

Additional observations from a re-analysis of the deposited data

How the results depend on the processing

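The number of genes called over the whole table depended strongly on the setting. Of higher and lower genes, edgeR called 12 and 3. It called 64 and 13 with no filter, 13 and 4 with at least 50 counts in 3 samples, 18 and 5 with counts divided by 4, and 0 and 0 with 5-Fu+BBR replicate 1 alone, where 3.56% of all genes were higher at an unadjusted p under 0.05. DESeq2 called 880 and 347, limma-voom with sample weights 48 and 18, and limma-trend 10 and 1 on log2(FPKM + 1) and 9 and 0 on log2(FPKM + 0.1). Leaving out 1 library gave 0 to 145 higher and 0 to 15 lower, with 0 and 0 without 5-Fu replicate 1 or 5-Fu+BBR replicate 2.

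Of the 10 cytotoxic genes, 0 were called by edgeR or limma under any of these settings, and DESeq2 called 2. At an unadjusted p under 0.05 the number higher was 5 by edgeR on all 6 libraries, where 9.48% of all genes were higher. It was 6 with DESeq2 (Gzmb added), where 10.3% of all genes were. On log2(FPKM + 1) the FPKM filter left 4 of the 10 genes, of which 1 was higher, where 9.2% of all genes were. With 1 library left out it was 2 to 6. It was 2 (Klrk1 and Itgae) without 5-Fu replicate 2, where 9.98% of all genes were higher at that p, and without 5-Fu+BBR replicate 2, where 5.7% were. It was 3 without 5-Fu+BBR replicate 3, where 7.89% of all genes were, and 6 without 5-Fu+BBR replicate 1, where 8.27% were. The groups did not overlap for 4 genes, where 12.3% of all genes lay higher without overlap. The number was 1 of the 4 genes left on log2(FPKM + 1), 5 on log2(FPKM + 0.1) and 4 to 7 with 1 library left out. For these settings the share of all genes was computed only where given here. The 7 were found without 5-Fu+BBR replicate 1, where 18.7% of all genes lay higher without overlap. Signs turned for Gzma (-0.88) and Gzmb (-0.16) with 5-Fu+BBR replicate 1 alone, for Ncr1 (-0.083) and Eomes (-0.12) without it, and for Ncr1 without 5-Fu replicate 2 (-0.18). With 1 library left out, Ncr1 ran from -0.18 to 0.55 and Eomes from -0.12 to 0.57. The cause was not tested.

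The labels share replicate numbers, but the deviations of same-numbered libraries correlated at only 0.058, 0.024 and 0.12, and not every library correlated best with its own number. A replicate block called 91 higher and 22 lower genes, 0 of them among the 10, with adjusted p = 0.0553 for Klrk1 by edgeR. Tbx21 and Klrd1 rest on as few as 6.5 and 5.75 fragments in a library, which limits what can be read from single values.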

Other observations

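The 5 other genes whose log2 levels followed the mean of the 10 cytotoxic genes most closely over the 6 libraries were Trpm2, Nog, Cst3, Synm and Tigit, with Pearson r of 0.990 to 0.996. Trpm2 encodes a calcium-permeable channel, Nog a secreted inhibitor of bone morphogenetic proteins, Cst3 cystatin C, Synm an intermediate filament protein of muscle and Tigit an inhibitory receptor of T and NK cells. Tigit was at 1.04, 0.566 and 1.06 CPM in 5-Fu and at 1.67, 2.91 and 2.67 CPM in 5-Fu+BBR. In all, 417 genes reached an r of at least 0.9 over these 6 libraries, which share their treatment groups and depth, and the values are given as a description.

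Among the 10 genes themselves, the r of the 45 pairs ran from -0.66, for Gzma and Eomes, to 0.95, for Gzma and Gzmb, over the same 6 libraries. Of the 7 B cell markers 7 had a positive log2 fold change (median 1.65) and 0 passed adjustment by edgeR. At an unadjusted p under 0.05, 6 were higher, where 9.48% of all genes were. Cd79a, a chain of the B cell receptor complex, was at 9.20, 41.2 and 20.8 CPM in 5-Fu and at 58.6, 72.1 and 62.5 CPM in 5-Fu+BBR, without overlap. S100a8, a neutrophil gene, was at 35.8, 32.7 and 2.70 CPM in 5-Fu and at 9.20, 0.253 and 0.144 CPM in 5-Fu+BBR. It was lowest in 5-Fu+BBR libraries 2 and 3, which had the most Gzma and also the most kidney transcripts. In 5-Fu library 1, the highest for S100a8, Gzma was also the highest of 5-Fu, at 5.75 CPM. No relation between the 2 genes was tested. Ddx3y of the Y chromosome was at 45.9 CPM or more in all 6 libraries, and Xist of the X chromosome had counts in all 6 as well.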
